A study of Rattus norvegicus with 8 samples.

Results

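The genes of AMPA-type glutamate receptors were followed in rat hippocampal neurons whose somata and processes had been sequenced separately, with and without 48 h of picrotoxin (PTX). The 9 genes were chosen by symbol, with earlier results of these data known. The pore-forming subunits were Gria1, Gria2, Gria3 and Gria4. The others were the transmembrane AMPA receptor regulatory proteins (TARPs) Cacng2, Cacng3 and Cacng8, and the cornichon proteins Cnih2 and Cnih3. All 9 were among the 28909 gene symbols with deposited read counts, and all 9 passed the read filter (over 20 reads in 2 or more libraries), which left 14309 genes for the tests.

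The cells were primary cultures from embryonic Sprague-Dawley hippocampus, grown on a perforated membrane. Cell bodies stay above it, and the RNA called processes was taken from beneath it. PTX, which blocks GABA-A receptors and so raises network activity, was given from day 18 to day 20 in vitro, and vehicle cultures received ethanol. The 4 conditions were somata with vehicle, somata with PTX, processes with vehicle and processes with PTX, with 2 ribosome-depleted libraries each and 8 in all. Nothing in the labels says whether libraries of a condition came from separate cultures, so the p-values measure only the spread between these libraries, which may be technical.

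AMPA receptors are tetramers of the products of Gria1 to Gria4 and carry most fast excitatory transmission in the brain. Receptors that contain the Gria2 product in its edited form let little calcium pass. TARPs bind the pore in the membrane, slow its closing and tie it to the postsynaptic scaffold, while cornichons help receptors leave the endoplasmic reticulum and slow their deactivation at the surface. In homeostatic downscaling, neurons that have been overactive for a long time lower the strength of their excitatory synapses, and AMPA receptor content is a well-known part of that response.

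Cacng2, which encodes stargazin, and Cacng3, which encodes a TARP of the same subfamily, had PTX estimates of opposite sign in both compartments. They were not the only such members, as the estimates of Cacng8 also lay opposite to those of Cacng3. Of the estimates of Cacng2 and Cacng3, only that of Cacng2 in processes passed the test used below. The promoter windows of Cacng2 and Cacng3 are shown because of these signs, so the pair was picked by its values. Each window runs from 250 bases before to 50 bases after the annotated start of transcription in RefSeq, read 5′ to 3′ on the strand of the gene from assembly GRCr8. Capitals mark the GC box GGGCGG, which is read as CCGCCC where it lies on the opposite strand.
Cacng2 (chr7:111577708-111578007, minus strand): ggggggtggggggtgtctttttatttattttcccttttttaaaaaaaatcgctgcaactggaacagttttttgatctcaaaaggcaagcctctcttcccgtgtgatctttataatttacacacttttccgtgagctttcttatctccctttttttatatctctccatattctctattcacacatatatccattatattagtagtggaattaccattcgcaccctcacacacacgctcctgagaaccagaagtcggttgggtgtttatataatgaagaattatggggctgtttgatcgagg
Cacng3 (chr1:186632312-186632611, plus strand): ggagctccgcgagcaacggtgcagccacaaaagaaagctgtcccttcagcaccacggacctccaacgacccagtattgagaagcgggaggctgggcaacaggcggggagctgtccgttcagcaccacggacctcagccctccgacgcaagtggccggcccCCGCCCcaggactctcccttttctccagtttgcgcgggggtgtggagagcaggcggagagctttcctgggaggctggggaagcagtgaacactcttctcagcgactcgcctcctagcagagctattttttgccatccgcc
Of the bases in the Cacng2 window 39% were G or C, against 63% in the Cacng3 window. The share was 61.7% for Cacng8 and 65.3% for Cnih2, whose PTX estimates lay below 0 in both compartments, as those of Cacng2 did. For Gria4 and Cnih3 it was 60.3% and 72.3%. No GC box was found in the Cacng2 window, and 1 was found in that of Cacng3, where it begins 90 bases before the start of transcription. The windows of Cnih2 and Cnih3 held 3 and 1 GC boxes, and those of Gria4 and Cacng8 held none. Among 33469 rat promoter windows of 300 bases, 33.1% held at least 1 on either strand. The core of the cAMP response element, TGACG, was absent from the 6 member windows that could be matched and present in 21.2% of all windows. The E-box CACGTG was found once, in the Cnih3 window, and in 6.42% of all windows. Neither the serum response element nor the MEF2 site occurred in the 6 windows, and they occurred in 1.64% and 3.29% of all windows. No 2 of these motifs overlapped in a member window. These are matches of letters on both strands, not measured binding sites.

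The libraries held between 12290890 and 18455662 counts, but mitochondrial rRNA took 64.9% to 68.3% of them in processes and 21.1% to 24.8% in somata. Genes outside the mitochondrial genome shared 4702054 to 5491237 counts in a process library and 9517542 to 11227599 in a soma library. The 9 members together had 5420 to 7704 reads in a process library and 15607 to 21279 in a soma library, so their changes were measured less precisely in processes. Levels below are CPM (counts in a library of 1e+06) after TMM scaling in edgeR, which sets the bulk of genes level between libraries, and they are not corrected for transcript length. In such bulk samples, fewer cells of a type and less RNA per cell cannot be told apart. The labels call the cells neurons, and 5 of 5 neuronal markers were detected in every library, but so were 5 of 5 astrocyte markers and 8 of 8 markers of the oligodendrocyte lineage. Summed astrocyte markers came to between 2335 and 3532 CPM in somata and between 9132 and 12393 CPM in processes. Most of this sum was Gfap, whose mean was 10247 CPM in vehicle processes and 1685 CPM in vehicle somata. Of the microglial list, 4 of 5 markers were in the table and none exceeded 27 reads in a library. Of 3 endothelial markers 2 were in the table, and Cldn5, the defining tight-junction gene among them, had 0 reads throughout.

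In somata, Gria1 fell with PTX, and the remaining subunit, TARP and cornichon genes did not pass the test in the fit of all 8 libraries. Gria1, which encodes the subunit most closely linked to activity-dependent receptor insertion, had 178 and 158 CPM with vehicle and 122 and 111 CPM with PTX. Both PTX libraries lay below both vehicle libraries, and the level fell by 30.9% (log2 fold change -0.53, standard error 0.115, adjusted p = 0.0301, edgeR quasi-likelihood test with Benjamini-Hochberg adjustment). This was 1 of 9 members called lower and 0 of 9 called higher, where 1.5% of all tested genes were called lower and 2.09% higher. The call needed all 4 soma libraries. Without any 1 of them the estimate lay between -0.63 and -0.45, and the highest adjusted p was 0.211, without replicate 1 of the somata vehicle libraries.

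The replicate numbers were taken to pair the libraries across conditions, although the labels do not say what they mark. That pairing rests on these same data, in which the differences between replicates correlated across conditions (r from 0.27 to 0.54). A fit with the number as a block called 6 of the 9 members in somata. Of these 5 were lower (Gria1, Gria2, Gria3, Cacng2 and Cnih2) and 1 was higher (Cacng3). With the block, 6.79% of all tested genes were called lower and 7.21% higher. Without regard to any test, both PTX libraries lay below both vehicle libraries for 6 members and above them for 2, against 25% and 24% of all tested genes. The median log2 fold change was -0.37 over the 9 members and -0.006 over all tested genes.

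Gria2, the subunit that sets calcium permeability, had 490 and 459 CPM in somata with vehicle and 364 and 369 CPM with PTX. Its groups did not overlap, with a log2 fold change of -0.37 (95% interval -0.62 to -0.12) and an adjusted p of 0.111 by the quasi-likelihood test of edgeR, or 0.00727 with the replicate block. Gria3, a subunit that usually pairs with the Gria2 product, had 36.7 and 29.9 CPM with vehicle against 24.4 and 25.3 CPM with PTX. That gave a log2 fold change of -0.42 (95% interval -0.72 to -0.12), an adjusted p of 0.139 and one of 0.00659 with the block. Gria4, the subunit best known from interneurons and from young pyramidal cells, stood apart from the other 3 subunits in that its groups overlapped. It had 54.5 and 48.3 CPM with vehicle and 49.2 and 51.2 CPM with PTX, and its log2 fold change of -0.03 had an interval from -0.31 to 0.25. The sign of the Gria4 estimate depended on scaling, as it was 0.035 when only library size was used.

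**Figure D1:**
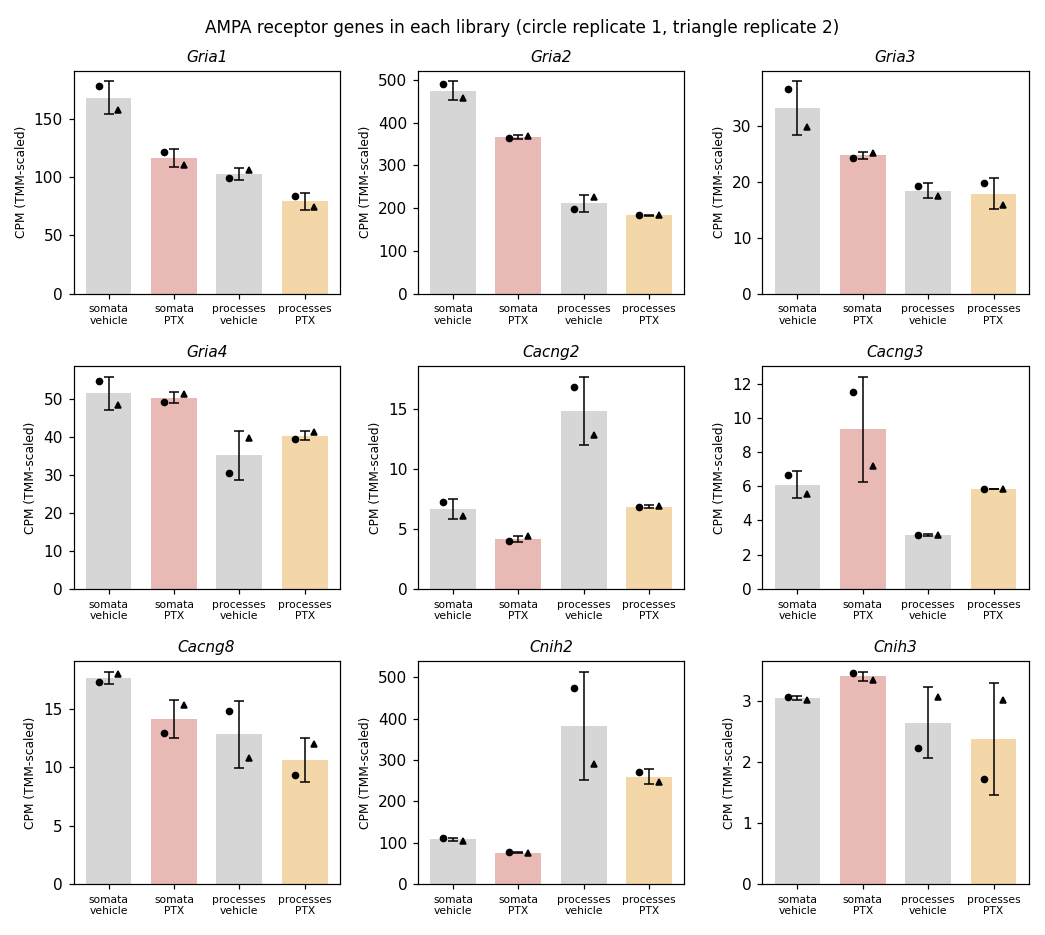
CPM after TMM scaling (vertical axes, from 0) of the 9 AMPA receptor genes in each of the 8 libraries. Bars are means of the 2 libraries of a condition, error bars are 1 SD, circles are replicate 1 and triangles replicate 2. Gria1 and Gria2 stand higher in somata than in processes, Cacng2 and Cnih2 the other way round, and Gria1 lies lower with PTX in both compartments.

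Among the TARPs, the estimates for Cacng2 and Cacng3 had opposite signs in somata, and neither passed the test without the block. Cacng2 had 7.23 and 6.07 CPM in somata with vehicle and 3.99 and 4.36 CPM with PTX, so that both PTX libraries were the lower ones. The log2 fold change was -0.67 (95% interval -1.07 to -0.27), with an adjusted p of 0.0746 in edgeR and of 0.00642 with the block. Cacng3 had 6.67 and 5.52 CPM with vehicle and 11.5 and 7.16 CPM with PTX, and here both PTX libraries were the higher ones. Its log2 fold change was 0.62 (95% interval 0.14 to 1.10), and it reached an adjusted p of 0.179 (0.0106 with the block, edgeR). The size of this estimate depended on single libraries, from 0.22 without replicate 1 of the somata PTX libraries to 0.91 without replicate 2. Cacng8, whose product is the main TARP of hippocampal pyramidal cells, had 17.3 and 18.02 CPM with vehicle and 12.9 and 15.3 CPM with PTX. These groups did not overlap either, but the log2 fold change of -0.32 (interval -0.69 to 0.04) did not pass the test with the block (adjusted p = 0.105) or without it (adjusted p = 0.396, edgeR).

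The cornichon Cnih2, the form that predominates in hippocampus, had 111 and 105 CPM in somata with vehicle and 76.5 and 74.7 CPM with PTX. The log2 fold change was -0.51 (95% interval -0.93 to -0.10), which gave an adjusted p of 0.199, and of 0.00484 once the block was added (edgeR). Its relative Cnih3 had 3.06 and 3.02 CPM with vehicle and 3.45 and 3.34 CPM with PTX, which put both PTX libraries above both vehicle libraries. That difference was small against its error, at 0.16 on the log2 scale with an interval from -0.39 to 0.71 (adjusted p = 0.851, edgeR quasi-likelihood test).

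In processes, the member that passed the test was Cacng2, which fell by 1.11 on the log2 scale. It had 16.8 and 12.8 CPM with vehicle and 6.77 and 6.94 CPM with PTX, a fall of the mean from 14.8 ± 2.85 to 6.86 ± 0.115 CPM (SD, n = 2 libraries each). The fold was 0.463 with a standard error of 0.195 on the log2 scale, and the adjusted p was 0.0132 (edgeR quasi-likelihood test, Benjamini-Hochberg). Here 1 of 9 members was called lower and 0 of 9 higher, against 2.1% and 1.64% of all tested genes. The call was lost without replicate 1 of the processes vehicle libraries, the one with the highest level, where the estimate was -0.90 with an adjusted p of 0.12. It was also lost without either of the processes PTX libraries, at estimates of -1.10 and -1.13.

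With the replicate block, 4 members were called in processes, where 6.09% of all tested genes were called lower and 5.1% higher. Those lower were Gria1, Cacng2 and Cnih2, and the 1 that was higher was Cacng3. Both PTX libraries lay below both vehicle libraries for 4 members and above them for 1 member, against 22.3% and 20.1% of all tested genes. The median of the members was -0.21 on the log2 scale, and that of all tested genes -0.011.

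The subunit genes showed smaller differences in processes than Cacng2 did. Gria1 had 99.1 and 106 CPM with vehicle and 84.2 and 74.1 CPM with PTX, with no overlap, a log2 fold change of -0.38 and an interval from -0.64 to -0.11. Its adjusted p was 0.13 in edgeR and 0.0131 with the block. Gria2 had 198 and 226 CPM with vehicle and 183 and 184 CPM with PTX, again without overlap, but its interval ran from -0.46 to 0.05 around -0.21 (adjusted p = 0.41 in edgeR, 0.202 with the block). For Gria3 the levels were 19.4 and 17.5 CPM with vehicle and 19.9 and 15.99 CPM with PTX, which overlapped (log2 fold change -0.05, interval -0.40 to 0.31). Gria4 had 30.6 and 39.6 CPM with vehicle and 39.4 and 41.1 CPM with PTX, which overlapped by a narrow margin (log2 fold change 0.20, interval -0.11 to 0.51).

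Cacng3 had 3.12 and 3.17 CPM in processes with vehicle and 5.86 and 5.83 CPM with PTX. Both PTX libraries were the higher ones, as they were in somata, with a log2 fold change of 0.89 (95% interval 0.22 to 1.56), an adjusted p of 0.155 and one of 0.0272 with the block. These levels rest on few reads, 28 and 27 with vehicle against 51 and 58 with PTX. Cacng8 had 14.8 and 10.8 CPM with vehicle and 9.30 and 11.97 CPM with PTX, and the groups overlapped (log2 fold change -0.27, interval -0.70 to 0.17). Cnih2 had 475 and 290 CPM with vehicle and 272 and 248 CPM with PTX. Its 2 vehicle libraries differed more from each other than replicate 2 of them did from the PTX libraries. The Cnih2 estimate of -0.56 (adjusted p = 0.153 in edgeR, 0.00392 with the block) became -0.16 without replicate 1 of the processes vehicle libraries and -0.87 without replicate 2. Cnih3 had 2.23 and 3.05 CPM with vehicle and 1.72 and 3.02 CPM with PTX, from 15 to 30 reads per library, and no difference was detectable at this depth.

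**Figure D2:**
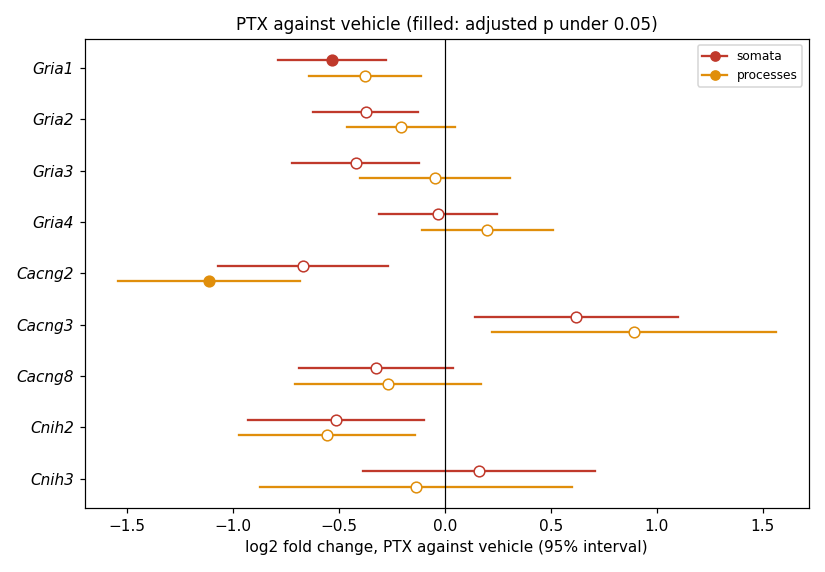
Log2 fold change of PTX against vehicle (horizontal axis) for the 9 genes in somata and in processes, with 95% intervals from the fit of all 8 libraries. Filled points passed an adjusted p of 0.05: Gria1 in somata and Cacng2 in processes. The Cacng3 intervals lie above 0 in both compartments, and those of Gria1, Cacng2 and Cnih2 lie below 0 in both.

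Whether PTX acted on a member to a different degree in the compartments was tested directly by the interaction, in which the effect in somata is subtracted from the one in processes. None of the 9 members passed it, and 0% of all tested genes did (edgeR quasi-likelihood test). At an unadjusted p under 0.05 there were 572 of 14309 genes and 0 members. The likelihood ratio test and DESeq2 called 4 genes each and the fit with the replicate block 15, with 0 members in each case. The estimates ran from -0.44 for Cacng2 (95% interval -1.03 to 0.15) to 0.38 for Gria3 (95% interval -0.09 to 0.84). With 2 libraries a condition the standard errors of these differences were 0.16 to 0.416.

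Markers of neuron classes, and an astrocyte marker, moved with the PTX comparison. The summed level of 4 excitatory markers ran from 416 to 432 CPM in vehicle somata and from 275 to 297 CPM in PTX somata. In processes the range went from 722 to 967 CPM with vehicle to 510 to 512 CPM with PTX. Most of the sum in vehicle processes was Camk2a, whose mean was 672 CPM there and 246 CPM in PTX processes. The mean of Slc17a7 went the other way, from 150 to 251 CPM. Within that list Neurod6 and Camk2a fell in both compartments (somata -1.64 and -1.13, processes -1.34 and -1.45 on the log2 scale), while Slc17a7, the vesicular glutamate transporter of most hippocampal principal cells, was at -0.33 in somata and rose by 0.73 in processes. The fourth marker, Slc17a6, had estimates of 0.50 and 1.10, which passed with the replicate block (adjusted p = 0.0329 and 0.00782, edgeR) and not without it (adjusted p = 0.307 and 0.104). The summed level of 3 inhibitory markers ran from 203 to 278 CPM in vehicle somata and from 367 to 470 CPM in PTX somata, and from 124 to 156 CPM and from 203 to 266 CPM in the 2 kinds of processes. Gad2 rose in both compartments, by 0.92 each, and Gad1 rose in somata by 0.82. The third marker, the vesicular transporter Slc32a1, did not pass in either compartment, at -0.02 in somata and 0.16 in processes, and its groups overlapped. Of the general neuron list, 5 of 5 genes had estimates below 0 in both compartments, and Rbfox3 was called in somata (-0.67, adjusted p = 0.0221, edgeR). With the block 2 of the 5 were called lower in somata (Rbfox3 and Tubb3), where 6.79% of all tested genes were. In processes the block called 4 of the 5 lower (Rbfox3, Map2, Tubb3 and Syp), against 6.09% of all tested genes. The neuron sum ran from 1471 to 1600 CPM in vehicle somata and from 1291 to 1417 CPM in PTX somata, and from 4880 to 5131 CPM and from 3656 to 4291 CPM in processes. Most of this sum was Map2, whose mean was 4609 CPM in vehicle processes and 3652 CPM in PTX processes. Summed astrocyte markers lay between 3124 and 3532 CPM in vehicle somata and between 2335 and 3281 CPM in PTX somata, and between 10774 and 12393 CPM and between 9132 and 10271 CPM in processes. Of the 5 astrocyte markers Gja1 was called lower in somata (-0.61, adjusted p = 0.0215, edgeR). The other 4 did not pass there, and none of the 5 passed in processes. With the block Aqp4 was also lower in somata (-0.50), and in processes Gja1 was lower (-0.44) and Slc1a3 higher (0.41). The oligodendrocyte list ran from 295 to 454 CPM and from 271 to 419 CPM in somata, and from 471 to 606 CPM and from 540 to 648 CPM in processes. The part of these markers in the changes of the AMPA receptor genes was not tested.

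Between compartments, members differed in both directions. In vehicle cultures the 4 subunit genes and Cacng3 were lower in processes than in somata, and Cacng2 and Cnih2 were higher. Thus 2 of 9 members were called higher and 5 lower, where 25.8% of all tested genes were called higher and 21.9% lower. In PTX cultures, which share no library with the vehicle cultures, the same 2 members were called higher and 4 lower (Gria1, Gria2, Gria3 and Cacng3), against backgrounds of 25.7% and 24%. The member medians were -0.55 and -0.47 on the log2 scale with vehicle and with PTX, and those of all tested genes -0.05 both times.

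Cnih2 showed the largest difference of the 9. It had 111 and 105 CPM in vehicle somata and 475 and 290 CPM in vehicle processes, which is 1.83 on the log2 scale (SE 0.193, adjusted p = 2.7e-05, edgeR). In PTX cultures it had 76.5 and 74.7 CPM in somata and 272 and 248 CPM in processes, a log2 fold change of 1.78 (adjusted p = 3.14e-05, edgeR), and both calls held in all 8 fits that left out 1 library. Cacng2 rose from 7.23 and 6.07 CPM in vehicle somata to 16.8 and 12.8 CPM in vehicle processes, by 1.16 on the log2 scale (adjusted p = 0.000395, edgeR). With PTX its 2 process libraries, at 6.77 and 6.94 CPM, were still above the soma libraries at 3.99 and 4.36 CPM (log2 fold change 0.72, adjusted p = 0.0123, edgeR). This second call was lost without replicate 1 of the somata PTX libraries (0.66, adjusted p = 0.0656) and without replicate 2 of the processes PTX libraries (0.70, adjusted p = 0.0599).

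Gria2 was the subunit with the largest deficit in processes. Its levels of 490 and 459 CPM in vehicle somata stood against 198 and 226 CPM in vehicle processes (log2 fold change -1.16, SE 0.115, adjusted p = 1.66e-05, edgeR), and with PTX the difference was -0.996. Gria1 differed by -0.71 with vehicle and -0.55 with PTX (adjusted p = 0.000629 and 0.00286, edgeR). Both calls of both genes held without any 1 library. Gria3 differed by -0.85 with vehicle and -0.47 with PTX (adjusted p = 0.000889 and 0.0216, edgeR), and the PTX call was lost without replicate 1 or replicate 2 of the somata PTX libraries and without replicate 2 of the processes PTX libraries, between -0.49 and -0.32. Gria4 differed by -0.55 with vehicle (adjusted p = 0.00637, edgeR). That call was lost without replicate 1 of the somata vehicle libraries (-0.46, adjusted p = 0.0529) or of the processes vehicle libraries (-0.38, adjusted p = 0.0526). With PTX it did not pass (-0.32, adjusted p = 0.0668), although it did with the block (adjusted p = 0.0148, edgeR).

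Cacng3 was lower in processes, at -0.95 with vehicle and -0.68 with PTX (adjusted p = 0.0165 and 0.0377, edgeR). It was called in 5 of 8 and 3 of 8 fits that left out 1 library, and its PTX estimate was -0.28 without replicate 1 of the somata PTX libraries, the library with its highest level. The vehicle call was lost without replicate 1 of the somata vehicle libraries and without either of the processes vehicle libraries, at adjusted p from 0.0771 to 0.0835 (edgeR). Cacng8 had estimates of -0.46 and -0.40 that did not pass (adjusted p = 0.0566 and 0.0922) and passed with the replicate block (adjusted p = 0.0145 and 0.0346, edgeR). Leaving out 1 library moved the vehicle estimate from -0.71 (called, adjusted p = 0.0256) without replicate 1 of the processes vehicle libraries to -0.25 without replicate 2, and it was called in 3 of 8 such fits. The PTX estimate ran from -0.60 without replicate 2 of the processes PTX libraries to -0.24 without replicate 1. Cnih3 differed by -0.20 and -0.50, with intervals from -0.85 to 0.44 and from -1.15 to 0.14.

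The TMM scale decides where 0 lies in these compartment comparisons. When only library size was used, the median of all tested genes moved to -1.86 in vehicle cultures and -1.87 in PTX cultures, Cacng2 became -0.66 and -1.11, and Cnih2 became -0.0061 and -0.048. Relative to that median Cnih2 stood at 1.85 and 1.83 and Cacng2 at 1.20 and 0.77. With the libraries sized over genes outside the mitochondrial genome, a scaling added after the data had been seen, the medians were -0.51 and -0.50 and Cnih2 was at 1.36 and 1.327. Cacng2 was then at 0.70 and, no longer past the test, at 0.26 in PTX cultures (adjusted p = 0.26, edgeR). Marker genes moved with this comparison too, and not all one way. Of the astrocyte list, Gfap was higher in vehicle processes by 2.60 on the log2 scale, Slc1a3 and Gja1 were lower (-0.56 and -0.38), and Aqp4 (0.08) and Aldh1l1 (0.43) did not pass. The part of these markers was not tested.

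**Figure D3:**
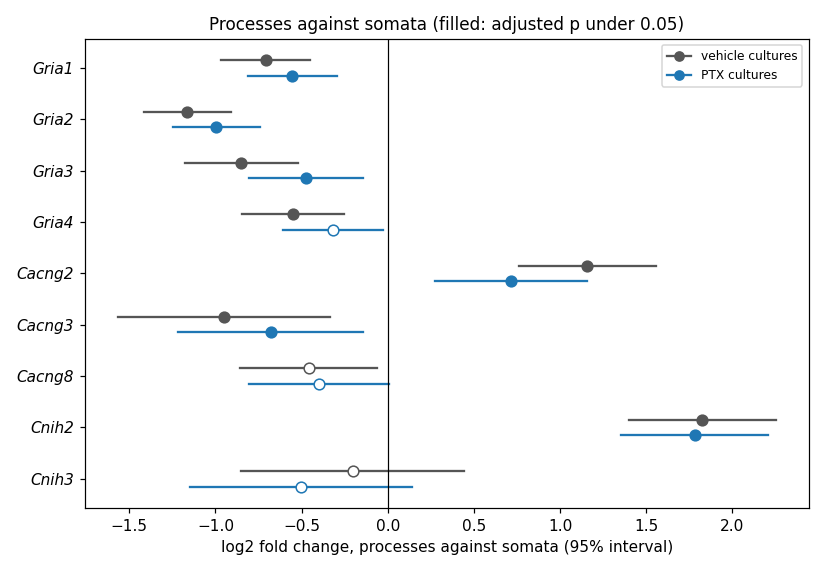
Log2 fold change of processes against somata (horizontal axis) for the 9 genes in vehicle and in PTX cultures, with 95% intervals from the fit of all 8 libraries after TMM scaling. Filled points passed an adjusted p of 0.05. Cnih2 and Cacng2 lie to the right of 0 in both cultures, and Gria1, Gria2, Gria3 and Cacng3 to the left. Under scaling by library size alone Cacng2 and Cnih2 lie below 0.

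Ratios between subunits within a library do not depend on scaling, and their differences between conditions do not depend on transcript length. They are given as values and no test was run on them. An exact permutation test of 2 libraries against 2 could not have passed, and a model over all 8 libraries was not fitted to them. Reads of Gria1 relative to Gria2 were at log2 -1.46 and -1.54 in vehicle somata and at -1.58 and -1.74 in PTX somata. In processes they were at -0.996 and -1.09 with vehicle and at -1.12 and -1.31 with PTX. The PTX libraries were thus lower in both compartments, by means of 0.16 and 0.17, and the process libraries were all higher than the soma libraries.

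Gria4 relative to Gria2 went the other way with PTX. The ratio was -3.17 and -3.25 in vehicle somata and -2.88 and -2.85 in PTX somata, and it was -2.69 and -2.51 in vehicle processes and -2.21 and -2.16 in PTX processes. The 4 conditions did not overlap, with mean differences of 0.34 in somata and 0.41 in processes for PTX, and of 0.61 with vehicle and 0.68 with PTX for processes against somata. After TMM scaling the PTX estimates were -0.03 for Gria4 and -0.37 for Gria2 in somata, and 0.20 and -0.21 in processes. The soma difference in the ratio thus lay mainly in Gria2. Between vehicle compartments both genes were lower in processes, Gria2 (-1.16) more so than Gria4 (-0.55). Gria3 relative to Gria2 overlapped between vehicle and PTX in both compartments, with -3.74 and -3.94 against -3.90 and -3.87 in somata and -3.35 and -3.69 against -3.20 and -3.52 in processes. Within replicate numbers the process ratio was higher with PTX in both pairs, and the soma ratio was lower in one pair and higher in the other. Of the inhibitory markers, Gad2 was called higher with PTX in both compartments and Gad1 in somata, as given above. Gad1 was at 0.56 in processes (adjusted p = 0.14, or 0.000639 with the block, edgeR), and Slc32a1 passed in neither compartment. The part of these 3 markers in the Gria4 ratio was not tested.

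**Figure D4:**
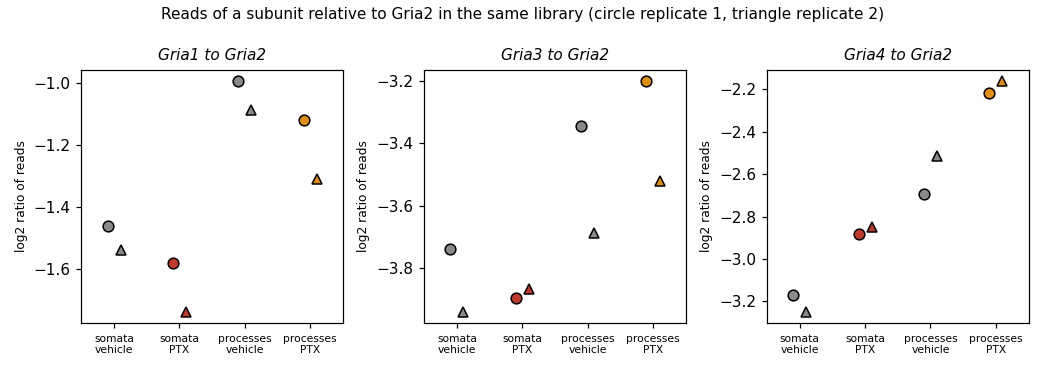
Log2 ratio of the reads of Gria1, Gria3 and Gria4 to those of Gria2 in the same library (vertical axes, with 0.5 added to each count), by condition. Circles are replicate 1 and triangles replicate 2. The Gria4 ratio steps up from vehicle to PTX in both compartments, from -3.17 and -3.25 to -2.88 and -2.85 in somata, and the Gria1 ratio is lower with PTX.

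Around the 9 members, 44 further genes of AMPA receptor biology were looked at in 5 lists, of which 42 were tested and Gsg1l and Shisa9 were not. The lists were drawn up with results of these data known, so their counts describe and do not test. The other auxiliary subunits had 8 of 10 genes tested. Shisa6, a receptor partner that keeps AMPA receptors from desensitising, fell in both compartments. It had 8.97 and 8.07 CPM in vehicle somata and 3.13 and 4.15 CPM in PTX somata (log2 fold change -1.23, adjusted p = 0.00605, edgeR). In processes it had 8.70 and 7.28 CPM with vehicle and 2.87 and 2.51 CPM with PTX (log2 fold change -1.57, adjusted p = 0.00715, edgeR). Prrt1, which encodes the receptor partner SynDIG4, and Shisa7 also fell in processes, by 1.04 and 0.75 on the log2 scale (adjusted p = 0.0286 and 0.0283, edgeR). No gene of this list was called higher without the block, and its medians were -0.40 in somata and -0.21 in processes. With the block 5 genes were called lower in somata (Shisa6, Cacng4, Shisa7, Syndig1 and Prrt1) and Cacng5 was called higher (0.61, adjusted p = 0.00763, edgeR). Over all tested genes in somata the block gave 6.79% lower and 7.21% higher. The calls of this list in processes were those without the block. Between compartments Cacng4 and Cacng7 were higher in vehicle processes by 1.04 and 0.91, and Cacng5 was lower (log2 fold change -1.35, from 14 and 42 reads in the process libraries). Cacng5 and Shisa7 were also lower in PTX processes, at -2.07 and -1.09, and Cacng4 and Cacng7 were higher, by 1.19 and 0.85. The vehicle estimate of Shisa7 was -0.75.

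None of the 8 genes of assembly and exit from the endoplasmic reticulum passed the PTX test in either compartment, and the medians were -0.02 and -0.07. Frrs1l, which takes part in receptor assembly, was at -0.60 in both, with an adjusted p of 0.0775 in somata and 0.106 in processes, and of 0.00494 and 0.0185 with the block (edgeR). Between compartments 1 gene of this list was higher in vehicle processes and 4 were lower, against 25.8% and 21.9% of all tested genes. In PTX processes 2 were higher and 4 lower, against 25.7% and 24%. Frrs1l was the one higher with vehicle (0.67), while Porcn was lower at -1.39 and -1.36 and Cpt1c at -0.52 and -0.75. Abhd6, a lipase that binds AMPA receptors, was lower in PTX processes at -0.69.

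Of 15 genes for binding of subunit tails, anchoring and traffic, Akap5 and Myo5b fell in somata and Myo5b fell in processes, and none was called higher. With the block Epb41l1 was also called lower in somata (-0.54, adjusted p = 0.0372, edgeR) and Myo5a higher in processes (0.30, adjusted p = 0.0334, edgeR). Akap5, the kinase and phosphatase anchor of the postsynaptic density, had 19.6 and 18.4 CPM in vehicle somata and 10.1 and 11.2 CPM in PTX somata (log2 fold change -0.83, adjusted p = 0.00844, edgeR). Myo5b, the motor that carries recycling endosomes, changed by -0.77 in somata and by -0.76 in processes (adjusted p = 0.0134 and 0.0211, edgeR). The medians of the list were -0.05 and -0.07. In processes against somata 7 of the 15 were higher and 3 lower with vehicle, and 10 were higher and 3 lower with PTX, against 25.8% and 21.9% of all tested genes with vehicle and 25.7% and 24% with PTX. Those with the largest differences were Epb41l1 (1.83 and 2.22), Dlg4 (1.78 and 1.66) and Snx27 (1.40 and 1.45), where Dlg4 encodes PSD-95, the scaffold that TARPs bind.

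The 6 genes of extracellular clustering held the rises. Nptx2, a secreted pentraxin that gathers AMPA receptors at excitatory synapses onto interneurons, rose from 27.2 and 26.9 CPM to 105 and 101 CPM in somata (log2 fold change 1.93, adjusted p = 9.56e-06, edgeR) and from 15.2 and 14.6 CPM to 42.1 and 39.9 CPM in processes (1.46, adjusted p = 0.000384, edgeR). Nptx1 rose in somata by 0.88 (adjusted p = 0.0134, edgeR) and was at 0.68 in processes (adjusted p = 0.0608, or 0.000329 with the block). The other 4 genes of the list did not pass without the block, and the medians were 0.40 and 0.10. With it, Nptxr (0.31) and Olfm3 (0.48) were called higher in somata and Olfm2 lower (-0.57), at adjusted p of 0.0388, 0.0246 and 0.000787 (edgeR). Nptx2 was lower in processes than in somata, at -0.86 with vehicle and -1.33 with PTX, and Olfm3 and Nptx1 were lower with PTX at -0.81 and -0.62. None of the 5 genes of RNA editing and activity-dependent endocytosis passed the PTX test without the block, with medians of 0.14 and -0.12. With it Arc was called higher in somata (0.43, adjusted p = 0.0212, edgeR) and in processes (0.40, adjusted p = 0.0491, edgeR), and Adar higher in processes (0.35, adjusted p = 0.0215, edgeR). Arc, which speeds receptor removal, was higher in processes by 1.12 and 1.10, and Adarb1, which encodes the enzyme that edits Gria2 transcripts, by 0.84 and 0.57. Adar was lower with vehicle at -0.45 and Bin1 with PTX at -0.47.

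**Figure D5:**
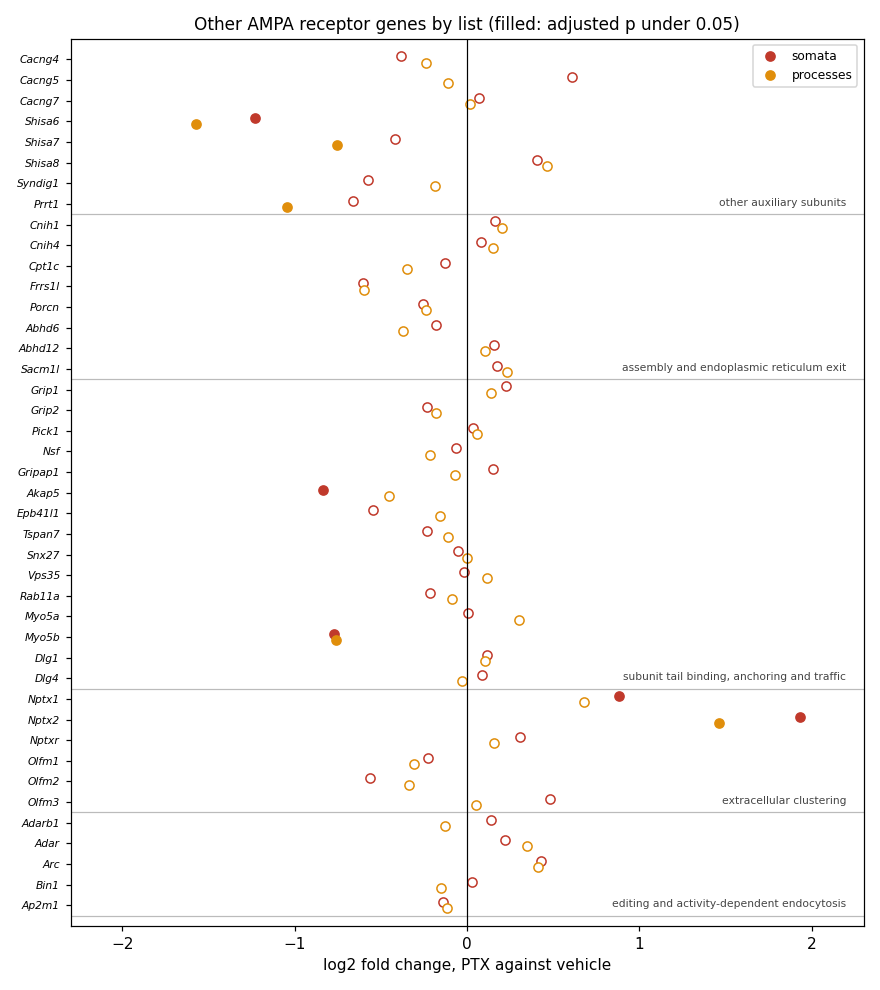
Log2 fold change of PTX against vehicle (horizontal axis) for the 42 tested genes of the 5 related lists, in somata and in processes. Filled points passed an adjusted p of 0.05. Nptx2 stands farthest to the right, at 1.93 and 1.46, and Shisa6 farthest to the left, at -1.23 and -1.57.

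The genes whose log2 CPM followed the subunits most closely over the 8 libraries were sought among the 10208 genes that averaged 5 CPM or more. For Gria1 these were Fam120b and Ryr2 (both with Pearson r = 0.986), and for Gria2 they were Ogt (r = 0.995) and Relch (r = 0.995). The Gria3 profile was nearest to those of Caap1 (r = 0.988) and Unc5c (r = 0.985), and the Gria4 profile to those of Pcdhga6 (r = 0.998) and Fam76b (r = 0.986). The 8 libraries share 4 conditions and a large gap between compartments, so these values describe likeness of profile and nothing further.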

How the data were processed

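Total RNA from the upper (somata) and lower (processes) face of filter inserts was depleted of ribosomal RNA and sequenced as single reads with a directional kit. Per the study's methods the authors trimmed reads with Trimmomatic, aligned them with Subread to the rat genome Rnor 6.0, used featureCounts with Ensembl gene models and added up the counts of each symbol, while the submitters' processing notes name STAR. The strand setting of the counting is not given in the sources used here. The deposited counts are whole numbers without normalization for 28909 symbols. The authors' own tables of PTX comparisons, which hold log2 fold changes, log2 CPM, test scores and p-values, were not used. Reads of near-identical, overlapping or antisense genes cannot be told apart here. In RefSeq assembly GRCr8, later than the build mapped to, Gria2 overlaps Mir2985, which had 193 reads over all libraries.

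The 14309 genes that had over 20 reads in 2 or more libraries were scaled by TMM and fitted with edgeR 4.0.16 in R 4.3.3, with 1 coefficient for each of the 4 conditions over all 8 libraries. Tests were glmQLFTest contrasts with Benjamini-Hochberg adjustment over all tested genes and a threshold of 0.05. Standard errors are the log2 fold change over the root of F. The fit was checked on simulated data. DESeq2 1.42.0 and the likelihood ratio test were alternatives, as were other scalings and filters, only the 4 libraries compared, the replicate block, and leaving out each library, where a lone library is assumed to vary like the other groups. The replicate numbers come from the labels, which do not say what they mark. The difference between replicates 2 and 1 correlated across genes with r = 0.54 between the somata conditions and r from 0.27 to 0.37 for the other pairs, so the numbers were taken to pair libraries.

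The members, lists and tests were chosen with earlier results of these data known. All members are named. From each related list up to 3 called genes per comparison with the largest absolute log2 fold change are named, and for Gria1 to Gria4 the 2 genes with the most similar profile. The PTX values of Frrs1l, the Cacng7 value in PTX cultures and the Shisa7 value in vehicle cultures were picked after their values were seen. So were the list genes called only with the block and the single markers given. Promoter windows from RefSeq (GRCr8) were matched by symbol for 6 of the 9 members. Comparisons of PTX within a compartment share libraries with the comparisons between compartments.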

Additional observations from a re-analysis of the deposited data

How the results depend on the processing

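The alternatives changed both the number of calls and the size of some estimates. Of 801 single-gene values, 710 kept direction and side of the threshold, 45 passed it newly, 26 no longer passed and 20 changed sign. The members called for PTX in somata (1) were 2 by the likelihood ratio test, 0 by library size only, 4 without the filter, 2 with only the 4 libraries compared, 6 with the replicate block and 0 to 2 without single libraries. The genes called there (513) were 972 by the likelihood ratio test, 1141 without the filter, 2002 with the replicate block and 117 to 568 without single libraries. In processes the members called (1) were 3 without the filter, 4 with the replicate block and 0 to 2 without single libraries. The genes called there (535) were 949 by the likelihood ratio test, 1129 without the filter, 298 with only the 4 libraries compared, 1601 with the replicate block and 97 to 478 without single libraries. Members called in the PTX compartment comparison (6) became fewer in some fits without single libraries. They were 8 by upper quartile scaling, 8 by library size only and 8 with sizes over genes outside the mitochondrial genome. Those 3 scalings called 7672, 13499 and 9062 of the 14309 tested genes there, and TMM called 7121. For the interaction, genes called (0) were 4 by the likelihood ratio test, 4 by DESeq2, 10 without the filter and 15 with the replicate block. The replicate block changed no other member call than those given with the results. The causes of these shifts were not tested.

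Library size only gave 13462 genes called for the compartments with vehicle and 13499 with PTX. Calls split into 3688 higher and 3135 lower with vehicle under TMM, 2750 and 4704 by upper quartile, 1935 and 7057 outside the mitochondrial genome and 191 and 13271 by library size only. With PTX they were 3680 and 3441, 2904 and 4768, 1958 and 7104, and 181 and 13318 in the same order. For PTX in somata the split was 299 higher and 214 lower under TMM and 351 and 140 by library size only, and in processes 235 and 300 against 237 and 220. By library size only the signs of Cacng2 (-0.66 with vehicle, -1.11 with PTX) and Cnih2 (-0.0061 and -0.048) between compartments turned, as did those of Gria4 for PTX in somata (0.035) and Gria3 in processes (0.0025). Without single libraries the PTX estimates ran from -0.13 to 0.054 for Gria4 in somata, from -0.21 to 0.11 for Gria3 and from -0.61 to 0.19 for Cnih3 in processes. Cnih3 ran from -0.44 to 0.0074 between vehicle compartments. Interaction estimates ran from -0.36 to 0.36 for Cnih2, from -0.15 to 0.31 for Cacng8, from -0.015 to 0.67 for Cacng3 and from -0.77 to 0.033 for Cnih3. Depth limits Cnih3 and Cacng3 in processes, with 15 to 30 and 27 to 58 reads per library.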
